A study of Mus musculus with 16 samples.

Results

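The enteric nervous system of the terminal ileum was followed through 8 genes, namely Elavl4, Ret, Chat, Nos1, Vip, Uchl1, S100b and Sox10. They were chosen by name and not by their values, but with earlier results of these data known. All 8 were present among the 23299 genes of the deposited table, and 7 of them passed the filter on low values that left 19042 genes for testing. Chat did not pass. The libraries came from the terminal ileum of C57BL/6 mice, either wild type (WT) or Tas1r3-/- (KO), a line backcrossed for at least 7 generations that lacks the shared subunit of the sweet and umami taste receptors in every tissue. The WT mice were littermates, and all mice were 5 to 6 weeks old at the start. Each genotype received for 10 weeks either a normal diet (ND) with plain water or a Western diet (WD), which was a 60% high-fat diet with a 30% sucrose solution to drink. By the labels each of the 4 groups held 2 males and 2 females.

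The enteric neurons and glia lie in the myenteric plexus between the muscle layers and in the submucosal plexus beneath the epithelium. Motor neurons of the myenteric plexus drive the smooth muscle with acetylcholine, and relax it with nitric oxide and vasoactive intestinal peptide. Both neurons and glia descend from neural crest cells that need the receptor Ret to colonise the gut. A piece of ileum therefore carries its neurons and glia together with its muscle coat, and the comparisons below ask whether their transcripts differed with the diet or the genotype, both as measured and relative to muscle.

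Not every column was a library of its own. The columns of the KO-ND females equalled weighted means of the 2 KO-ND male columns in all but 17 and 18 of 59258 transcripts and were left out, and the related columns of the KO-WD females were averaged and counted as 1 library. The groups compared were thus WT-ND with 4 libraries, KO-ND with 2 male libraries, WT-WD with 4 and KO-WD with 3, or 13 in all. The KO-ND group thus held males alone, and a comparison restricted to males was run as an alternative. Values are RPKM, that is reads corrected for transcript length and for library size, summed over the transcripts of a gene. The steps between low values implied 7003135 to 12384099 reads a library. Summed over all transcripts, the ND columns held 817011 to 819992 RPKM and the WD columns 542371 to 685274, so levels between diets were compared after scaling, and diet and this difference in the totals cannot be told apart. Tas1r3 itself ranged from 1.8 to 6.27 RPKM in the 8 WT libraries and did not exceed 0.00452 in the 5 KO libraries.

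The regions just upstream of the genes are shown as a description, and their part in the levels was not tested. RefSeq held a start site for 6 of the 8 genes (build GRCm38.p6), and Ret and Sox10 had no entry. The sequences run 5′ to 3′ on the strand of the gene and end at the start site, or, for Chat and Uchl1, where the first exon of another annotation (GENCODE M21) begins. For Elavl4, with 4 starts, the most upstream one was taken. Capitals mark TGACG or its reverse complement CGTCA, the core of the cAMP response element.
Vip: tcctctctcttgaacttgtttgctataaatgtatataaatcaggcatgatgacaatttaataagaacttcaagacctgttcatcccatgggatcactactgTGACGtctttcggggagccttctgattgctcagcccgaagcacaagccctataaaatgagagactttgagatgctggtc
Nos1: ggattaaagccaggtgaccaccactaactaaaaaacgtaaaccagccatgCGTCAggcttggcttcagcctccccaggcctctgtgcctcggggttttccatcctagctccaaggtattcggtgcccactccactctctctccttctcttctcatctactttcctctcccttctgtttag
Chat: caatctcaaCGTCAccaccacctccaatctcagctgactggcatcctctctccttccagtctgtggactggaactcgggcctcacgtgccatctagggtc
Elavl4: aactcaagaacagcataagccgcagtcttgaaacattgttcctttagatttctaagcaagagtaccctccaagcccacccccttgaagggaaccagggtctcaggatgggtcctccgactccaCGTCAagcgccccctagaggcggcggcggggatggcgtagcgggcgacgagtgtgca
Uchl1: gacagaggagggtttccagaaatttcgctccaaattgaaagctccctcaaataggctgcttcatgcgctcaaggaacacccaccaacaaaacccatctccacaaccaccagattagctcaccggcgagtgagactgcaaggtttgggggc
S100b: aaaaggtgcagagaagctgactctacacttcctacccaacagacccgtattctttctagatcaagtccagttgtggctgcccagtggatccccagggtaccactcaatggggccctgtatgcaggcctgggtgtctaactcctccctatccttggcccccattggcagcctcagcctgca
The Vip stretch is chr10:5639038-5639217 (plus strand), the Nos1 stretch chr5:117866659-117866838 (plus strand, between annotated exons of the longer Nos1 gene), the Chat stretch chr14:32465990-32466089 (minus strand) and the Elavl4 stretch chr4:110351912-110352091 (minus strand). That of Uchl1 is chr5:66675941-66676090 and that of S100b chr10:76253656-76253835, both on the plus strand. Within 250 bases upstream of the start taken, the core was found once each in Vip, Nos1, Chat and Elavl4. Its first base lay 79, 130, 171 and 57 bases before that start. It was not found in Uchl1, also a gene of neurons, or in S100b. The Nos1 start lies inside the gene, whose annotation begins at chr5:117781032. Whether the stretch before it acts as a promoter was not tested. The same letters occurred, on either strand, in 17.8% of all 32851 promoters, so a match is common and is given as a description only. The Vip stretch alone carried TATAAA within the bases shown, the last copy 30 bases before the start. On either strand, TATAAA occurred in 12.4% of all promoters over the same 250 bases.

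Measured per length, the 8 genes fell into 3 tiers. Uchl1, a deubiquitinase abundant in neurons, and Vip, the relaxant neuropeptide, were the highest, Ret, S100b and Sox10 lay between, and Nos1, Elavl4 and Chat were the lowest. The ranges of neighbouring tiers overlapped across libraries, but within each of the 13 libraries both Uchl1 and Vip exceeded the other 6 genes. Chat stayed below Ret, S100b, Sox10, Vip and Uchl1 in every library.

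Vip measured 13.2, 16.3, 22.9 and 11.2 RPKM in the WT-ND libraries M1, M2, F1 and F2, and 27.3 and 19.9 RPKM in KO-ND M1 and M2. In WT-WD M1, M2, F1 and F2 it measured 37.7, 20.5, 54.8 and 7.66 RPKM, and in KO-WD M1, M2 and the averaged females 47.7, 22.9 and 9.87 RPKM. Before scaling, the 3 highest values belonged to WD-fed mice, but so did the 2 lowest. After scaling the 3 highest were still WD-fed, while the lowest library was WT-ND F2. The WD groups overlapped the ND groups of both genotypes before and after scaling.

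Uchl1 measured 15, 13.1, 51.7 and 17.9 RPKM in WT-ND and 27.2 and 24.7 RPKM in KO-ND, in the same order of libraries. It measured 34.7, 11.1, 67.3 and 4.75 RPKM in WT-WD and 41, 13.3 and 8.75 RPKM in KO-WD. The female library F1 was the highest of its group in both WT groups. WT-WD F1 and F2, females of the same group, stood 14.2-fold apart.

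Nos1, the neuronal nitric oxide synthase, measured 1.16, 0.678, 2.47 and 0.556 RPKM in WT-ND and 1.37 and 1.48 RPKM in KO-ND. It measured 2.44, 1, 3.76 and 0.338 RPKM in WT-WD and 3.26, 0.566 and 0.34 RPKM in KO-WD. In RPKM the high and the low libraries were those of Vip and Uchl1. Chat, the enzyme that makes acetylcholine, reached 1 RPKM in a single library, WT-WD F1 (1.01 RPKM), and ranged from 0.152 to 0.734 RPKM elsewhere. It rested on 4 to 29 estimated reads a library, so that differences in Chat were hardly detectable at this depth.

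Elavl4 encodes HuD, an RNA-binding protein of neurons. It measured 0.765, 0.814, 3.47 and 0.588 RPKM in WT-ND, 0.681 and 1.74 RPKM in KO-ND, 1.81, 1.11, 0.63 and 0.101 RPKM in WT-WD, and 3.88, 0.802 and 0.0879 RPKM in KO-WD. It was the most variable of the 7 tested genes relative to muscle and rested on 0 to 90 estimated reads. WT-WD F1, the highest library in RPKM for Uchl1, Vip, Nos1, S100b, Sox10 and Ret, had only 0.63 RPKM of Elavl4. The split of its reads between transcripts was unstable as well, Elavl4-202 taking from 0.803% to 99.4% of the summed RPKM.

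Ret, the receptor for the GDNF family, varied least, with 4.48, 2.96, 6.69 and 3.52 RPKM in WT-ND, 3.77 and 4.41 RPKM in KO-ND, 5.16, 3, 6.91 and 1.57 RPKM in WT-WD, and 5.51, 2.77 and 2.54 RPKM in KO-WD. The groups overlapped in all 4 comparisons. Ret-202 carried 64.9% to 88.9% of the summed Ret level, Nos1-206 carried 88% to 100% of Nos1, Vip-201 carried 96.4% to 99.1% of Vip and Uchl1-202 carried 74.4% to 92.9% of Uchl1, so these sums each rested mainly on 1 transcript.

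The glial genes followed. S100b, a calcium-binding protein of glia, measured 1.61, 1.78, 2.87 and 2.39 RPKM in WT-ND, 3.01 and 3.49 RPKM in KO-ND, 2.62, 2.19, 6.84 and 0.98 RPKM in WT-WD, and 5.05, 2.33 and 1.08 RPKM in KO-WD. Sox10, a transcription factor of the neural crest that glia keep, measured 1.95, 1.27, 3.95 and 1.17 RPKM in WT-ND, 2.22 and 3.52 RPKM in KO-ND, 3.15, 1.48, 4.63 and 0.349 RPKM in WT-WD, and 3.64, 2.56 and 1.35 RPKM in KO-WD. For both, WT-WD F1 was the highest library of all in RPKM and WT-WD F2 the lowest. After scaling, S100b was lowest in the averaged KO-WD females, at 0.91 on the log2 scale against 0.94 in WT-WD F2.

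**Figure D1:**
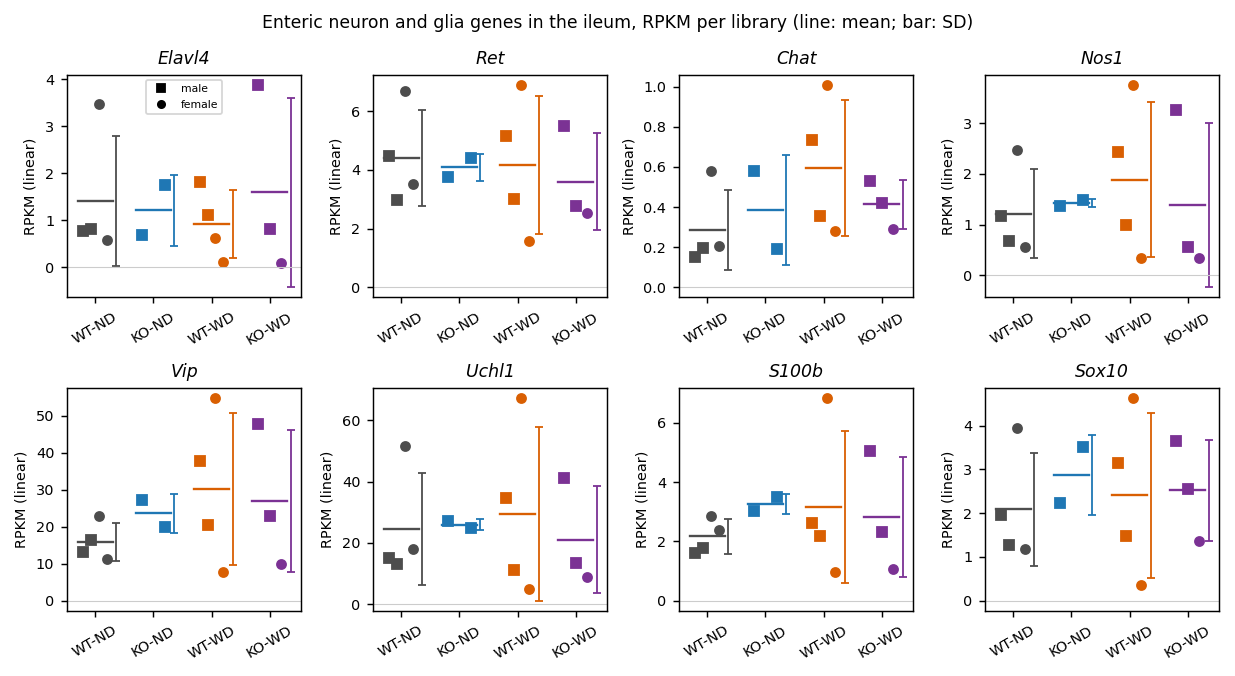
RPKM (linear axis) of the 8 genes in each library, by group, with squares for males and circles for females, a line at the group mean and a bar of 1 SD beside it. For Vip the WT-WD libraries spread from 7.66 to 54.8 RPKM, while WT-ND held 11.2 to 22.9 RPKM.

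The libraries rather than the groups ordered these genes. After scaling, KO-WD M1 was among the 3 highest libraries for all 7 tested genes, and WT-WD F1 and WT-WD M1 were each among them for 6 of 7. WT-WD F2 was among the 3 lowest for all 7, WT-ND F2 for 5 of 7 and the averaged KO-WD females for 4 of 7. The 3 libraries most often among the highest were thus WD-fed, while those most often among the lowest came from both diets. Over the 13 libraries the 21 pairs of members correlated with Pearson's r from 0.53 to 0.95, with a median of 0.83. These points share library, scaling and tissue composition. After the smooth muscle score was subtracted from each gene, the same pairs ranged from -0.16 to 0.50 with a median of 0.17.

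The first comparison asked whether the Western diet altered these genes in WT mice. In WD-fed WT mice the scaled level of Vip was higher than in ND-fed WT mice by 1.07 on the log2 scale (SE 0.50, 95% CI -0.02 to 2.17, adjusted p = 0.33, limma), a difference that did not pass the test. Those of the other tested genes were Nos1 at 0.63, S100b at 0.60, Uchl1 at 0.32, Sox10 at 0.31, Ret at 0.22 and Elavl4 at -0.13. No member was called at adjusted p under 0.01 and a fold of at least 2, where 0.00525% of all genes were called. The groups did not separate for any member either, as against 10.5% of all genes whose groups did not overlap. Two-sided exact permutation tests gave p = 0.143 for Vip, p = 0.0857 for Chat (0.64 on the log2 scale, 4 libraries against 4) and 0.171 or more for the other 6 genes. The smallest p this design allows is 0.0286. Across all genes tested the median difference was 0.02 and 2959 of 19042 had an unadjusted p under 0.05, none of them a member.

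Among related genes the same comparison called none. All 25 tested pan-neuronal genes lay above 0, with a median of 0.59 and the extremes Phox2a (0.12) and Snap25 (1.22), a synaptic vesicle fusion protein. With the smooth muscle score described below in the model, 15 of 25 lay above 0, with a median of 0.21, from Gap43 (-0.37) to Snap25 (0.84), and none was called. In the transmitter list 15 of 16 genes lay above 0, from Calb2 (-0.10) to Npy (1.37). That list also holds genes that encode no transmitter, such as Calb2 and Nog. Of the glial genes 9 of 14 lay above 0, with Erbb3 (-0.37) the lowest. In the GDNF and endothelin list 11 of 13 lay above 0, with Erbb2 (-0.69) the lowest. In the list of neuropeptide and nitric oxide targets, 10 of 12 did, from Vipr1 (-0.44), a Vip receptor also found on epithelium, to Chrm2 (0.92), a muscarinic receptor of smooth muscle. The smooth muscle genes moved alongside, with 16 of 18 above 0 and a median of 0.37, while 2 of 11 epithelial genes lay above 0 with a median of -0.46. None of these smooth muscle or epithelial genes was called. Without scaling the median of all genes in this comparison shifted by -0.40, and Uchl1, Ret and Sox10 then lay below 0 at -0.12, -0.18 and -0.01. Their direction thus depended on the scaling. Fewer cells of a type and less RNA per cell cannot be told apart in such bulk samples.

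Relative to muscle, Vip stood out in size but not in its test. As a share of Myh11, the smooth muscle myosin heavy chain, Vip was at 7.7%, 13.3%, 5.72% and 6.83% of its RPKM in WT-ND and at 10.5%, 13.5%, 14.6% and 15.6% in WT-WD. WT-ND M2 lay inside the WT-WD range and the other 3 below it. With the smooth muscle score as a covariate the difference in Vip was 0.72 (SE 0.24, 95% CI 0.21 to 1.24, unadjusted p = 0.0102, adjusted p = 0.127, limma), and after subtraction of the score it was 0.70 with an exact permutation p = 0.0857. The other members then lay between -0.45 (Elavl4) and 0.34 (S100b), with Ret and Sox10 at 0.00. With the score as a covariate no member was called, where 0.00525% of all genes were called. No member separated the groups relative to muscle, where 0.730% of all genes did.

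In KO mice the same dietary comparison gave smaller values. Vip differed by 0.32 (SE 0.65, 95% CI -1.09 to 1.74), Elavl4, Ret and Sox10 by 0.12, 0.13 and 0.13, S100b by -0.03, Nos1 by -0.10 and Uchl1 by -0.21, each with an adjusted p = 0.999 (limma). No member was called, as 0% of all genes were, with or without the muscle score in the model. At an unadjusted p under 0.05, 1046 genes and no member passed. The groups of 2 and 3 libraries overlapped for every member in level, where 20.9% of all genes did not overlap. Relative to muscle they separated for Vip alone of the 8, at -2.47 and -2.54 in KO-ND against -2.15, -2.19 and -2.45 in KO-WD (log2 of Vip minus the muscle score). The difference was 0.24 with an exact permutation p = 0.20, the design allowing no p below 0.10, and 2.42% of all genes separated in this way. In the related lists the extremes were Tubb3 (-0.69) and Scg3 (0.91), Nmu (-1.19) and Nog (0.90), L1cam (-0.28) and Kcna1 (0.89), Erbb2 (-0.27) and Nrg1 (1.07), and Galr2 (-0.31) and Vipr2 (0.71), none of them called.

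Whether loss of Tas1r3 altered the genes was asked on each diet. In ND-fed mice every tested member was higher in Tas1r3-/- than in WT by the estimate, Vip by 0.75, S100b by 0.65, Sox10 by 0.60, Uchl1 by 0.48, Nos1 by 0.40, Ret by 0.11 and Elavl4 by 0.10, with SEs from 0.41 to 0.82 and adjusted p from 0.895 to 0.986 (limma). Calls numbered 0 among the members, as 0% of all genes were called with or without the muscle score, and 900 genes but no member had an unadjusted p under 0.05. S100b was the only one of the 8 whose groups did not overlap, with 3.01 and 3.49 RPKM above 1.61 to 2.87 RPKM. Its exact permutation p was 0.0667, the smallest that 2 libraries against 4 can give, and 22.0% of all genes separated these groups. Relative to muscle the S100b groups overlapped and the difference was 0.09, as did the groups of every other member, where 10.6% of all genes did not. With the score in the model Ret, Nos1, Uchl1 and Elavl4 lay below 0 at -0.22, -0.16, -0.25 and -0.39. The smooth muscle genes lay above 0 in 17 of 18 cases in this comparison, with a median of 0.58, and the epithelial genes in 2 of 11, with a median of -0.86. Their part in the differences was not tested beyond the covariate.

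The related lists went likewise, with 23 of 25 pan-neuronal genes above 0 (median 0.40), from Nsg1 (-0.15) to Nsg2 (0.79). In the transmitter list 14 of 16 genes lay above 0, from Ddc (-0.25) to Nmu (1.58), the neuropeptide neuromedin U. Nmu had an unadjusted p of 0.0481 and an adjusted p of 0.895 (limma). The glial list ran from Erbb3 (-0.87) to Gfra2 (0.75), the signalling list from Nrg1 (-0.65) to Gfra2, and the target list from Vipr1 (-0.39) to Gucy1b1 (0.72), a subunit of the nitric oxide receptor of smooth muscle. None was called. With the muscle score in the model 5 of 25 pan-neuronal genes lay above 0 by their estimates, with a median of -0.19.

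In WD-fed mice the estimates were smaller in size than in ND-fed mice for every tested member except Elavl4. With the muscle score in the model they were smaller for Elavl4, Ret and S100b and larger for Nos1, Uchl1, Sox10 and Vip. Whether the sizes differed between diets was tested only as the interaction below. Vip differed by 0.01 (SE 0.54, 95% CI -1.18 to 1.19), S100b and Ret by 0.02, Uchl1 by -0.05, Nos1 by -0.33, Elavl4 by 0.34 and Sox10 by 0.41, all with an adjusted p = 1 (limma). The intervals reached beyond a fold of 2 for Elavl4, Nos1, Sox10, Uchl1 and Vip, so a difference of that size was not excluded for these genes. No member was called, against 0.0105% of all genes, and none separated the groups, against 2.84%. At an unadjusted p under 0.05, 504 genes passed and no member did. With the muscle score in the model Nos1 was lower in Tas1r3-/- mice by the estimate at -0.59 (SE 0.27, unadjusted p = 0.0499, adjusted p = 0.998, limma). After subtraction of the score Nos1 stood at -5.89, -5.61, -5.57 and -5.71 in WT-WD and -5.85, -6.76 and -6.26 in KO-WD, so that KO-WD M1 lay within the WT-WD range, and the exact permutation p was 0.0571. With the score none was called, where 0.0105% of all genes were called, and none separated the groups relative to muscle, where 0.987% of all genes did. Of the pan-neuronal genes 7 of 25 lay above 0, from Tubb3 (-0.45) to Phox2a (0.48). The transmitter list ran from Ddc (-0.58) to Nog (0.36), the glial list from Erbb3 (-0.29) to Gfap (0.59), the signalling list up to Gdnf (0.63) and the target list from Pde5a (-0.27) to Chrm3 (0.27), none called.

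The response to diet was not shown to differ between genotypes for any member. The interaction, that is the dietary difference in Tas1r3-/- mice minus that in WT mice, was -0.75 for Vip (SE 0.82), -0.73 for Nos1 (SE 0.88), -0.63 for S100b (SE 0.68), -0.53 for Uchl1, -0.18 for Sox10, -0.09 for Ret and 0.25 for Elavl4, each with an adjusted p = 1 (limma). No member was called, as 0% of all genes were with or without the score, and 272 genes but no member had an unadjusted p under 0.05. Extremes of the related lists were Snap25 (-1.11) and Phox2a (0.63), Nmu (-2.06) and Nog (0.22), Gfra2 (-0.79) and Kcna1 (0.71), and Galr2 (-0.79) and Vipr2 (0.49), and Nrg1 (0.61) was the highest of the signalling list.

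**Figure D2:**
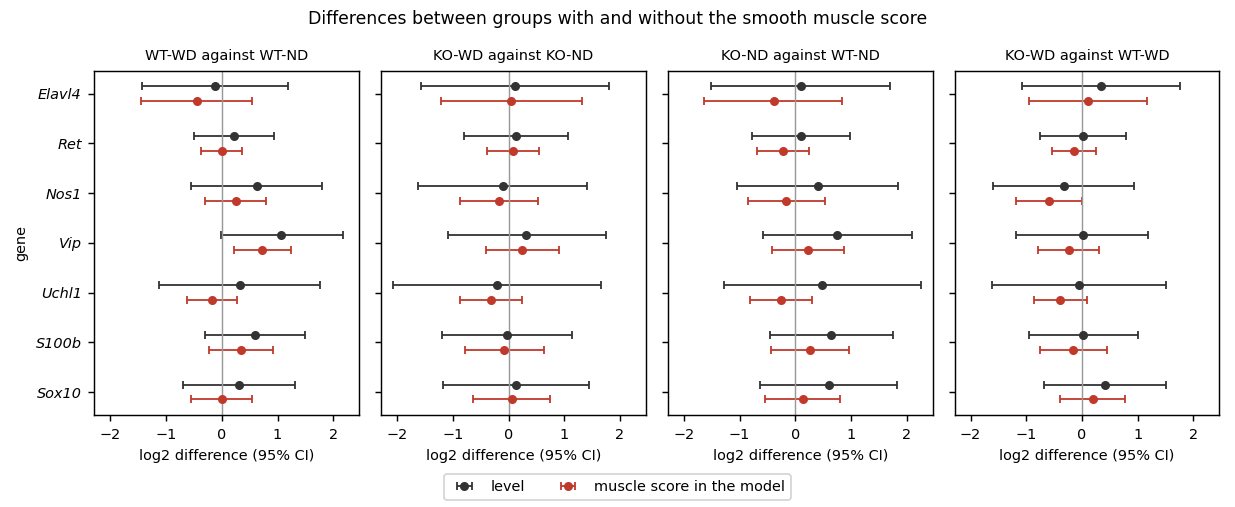
Differences on the log2 scale with 95% confidence intervals for the 7 tested genes in the 4 comparisons, without (dark) and with (red) the smooth muscle score in the model. Intervals narrow with the score, as for Vip in WT mice from -0.02 to 2.17 to 0.21 to 1.24, and no gene passed the adjusted threshold.

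The relation to muscle was the clearest pattern of these genes. The smooth muscle score, the mean scaled log2 level of 18 smooth muscle genes such as Myh11 and Acta2, ranged from 0.483-fold of its mean in WT-WD F2 to 2.34-fold in KO-WD M1. The score differed several-fold within both WD groups, and an epithelial score ran from 9.53 in WT-WD F2 down to 7.15 in KO-WD M1 on the log2 scale. With the groups in the model, a doubling of the score went with a rise of 1.32 on the log2 scale in Uchl1 (SE 0.12, adjusted p = 5.61e-05, limma), 0.99 in Nos1 (SE 0.15, adjusted p = 0.000798, limma) and 0.93 in Vip (SE 0.14, adjusted p = 0.000752, limma). Slopes were 0.82 for Sox10 (SE 0.14), 0.69 for S100b (SE 0.15) and 0.59 for Ret (SE 0.10), with adjusted p of 0.00231, 0.00751 and 0.00173 (limma). Elavl4 had a slope of 0.87 (SE 0.26) that missed the threshold at an adjusted p = 0.0347 (limma). A positive slope was called for 6 of 7 members, against 7.38% of all genes tested.

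The slopes differed in size within the set. The 95% interval of Uchl1 (1.06 to 1.58) lay above a slope of 1 and those of Ret (0.37 to 0.80) below it, so that Uchl1 rose more steeply than the muscle score and Ret less steeply. That of S100b (0.36 to 1.01) reached 1, as did those of Vip (0.64 to 1.23), Nos1 (0.68 to 1.31), Sox10 (0.51 to 1.14) and Elavl4 (0.30 to 1.44). Slopes of genes near the pseudocount of 0.5 RPKM, such as Elavl4 and Nos1, are understated on this scale. The calls rested in part on single libraries. Without WT-WD F2, the library lowest in muscle, 3 of 7 slopes were called (Uchl1, Vip and Nos1), and those of Ret, S100b and Sox10, at 0.56, 0.67 and 0.68, had adjusted p of 0.0128, 0.0361 and 0.0166 (limma). Without KO-WD M1 or without WT-WD F1, 4 of 7 were called in each case. The share of 7.38% of all genes applies to the full set of libraries, and the shares in these smaller sets are not reported here.

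Over the 13 libraries Pearson's r with the score was 0.94 for Uchl1, 0.92 for Ret, 0.91 for Sox10, 0.89 for Nos1, 0.88 for Vip, 0.86 for S100b and 0.69 for Elavl4, where the median over all genes tested was -0.08. The permutation p ranged from 2e-05 to 0.00739 and the values adjusted over all genes from 0.000924 to 0.0385. Spearman's rho was 0.96 for Uchl1, 0.95 for Ret, 0.89 for Nos1 and Sox10, 0.84 for Vip, 0.83 for S100b and 0.57 for Elavl4, with permutation p from 1e-05, the smallest that 100000 permutations can give, to 0.0465, and adjusted values from 0.00135 to 0.151. Without WT-WD F1 and KO-WD M1, the libraries farthest from the median score, r was 0.93, 0.87, 0.86, 0.81, 0.78, 0.79 and 0.70 for the genes in the same order.

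Within the WD the 7 libraries gave r from 0.90 to 0.97 for the genes other than Elavl4 (0.77). By exact permutation the p was lowest for Vip, at 0.000198 (adjusted 0.0245), and the rank order of Vip matched that of the score in all 7 libraries (rho 1.0). Within the ND the 6 libraries gave r of 0.95 for Uchl1 (exact permutation p = 0.00556, adjusted 0.413), 0.85 for Nos1, 0.82 for Ret, 0.77 for Sox10, 0.72 for Vip, 0.70 for S100b and 0.53 for Elavl4. After adjustment over all genes no member had a p under 0.01 in either diet. The score spanned 5.83 to 7.33 in the ND libraries and 5.70 to 7.97 in the WD libraries on the log2 scale.

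**Figure D3:**
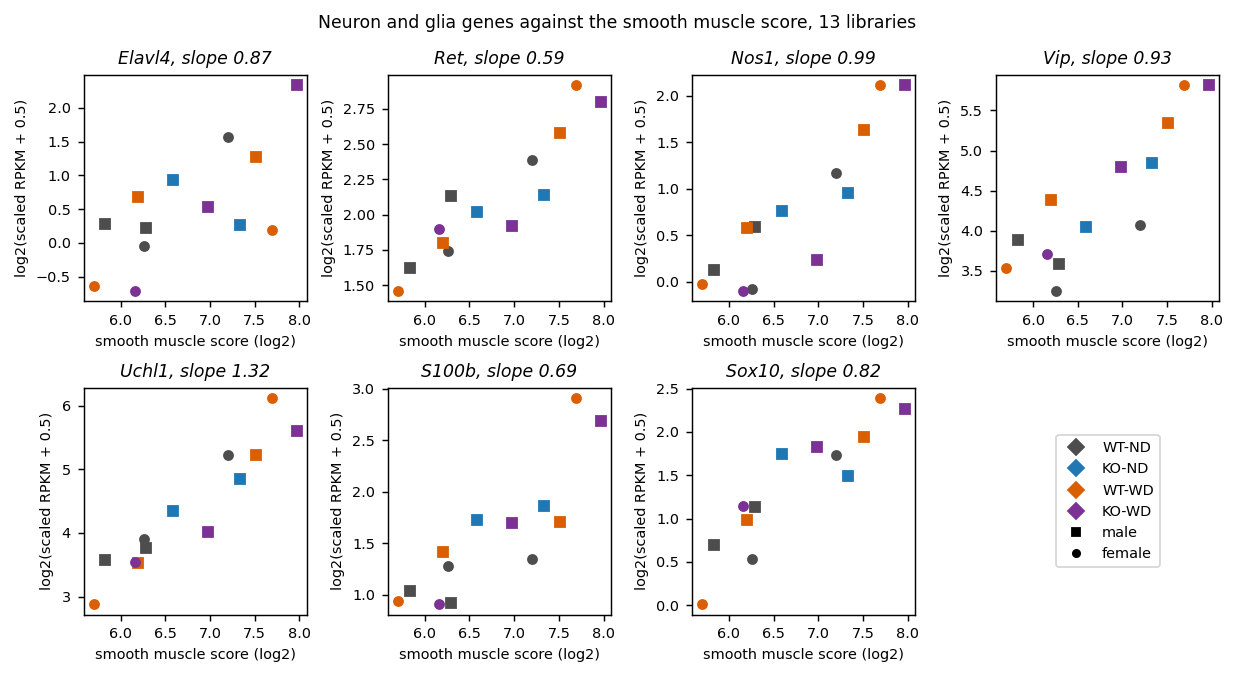
Level of the 7 tested genes, as log2(scaled RPKM + 0.5), against the smooth muscle score (log2) in 13 libraries, coloured by group, squares for males and circles for females. Points of the 4 groups lie along the same rise, steepest for Uchl1 (slope 1.32) and shallowest for Ret (0.59), and Elavl4 scatters most.

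Other neuronal genes showed the same relation, and the lists around them differed. Of 25 tested pan-neuronal genes 22 had a called positive slope, with a median of 1.01, the 5 steepest being Tubb3 (1.54), Prph (1.47), Gap43 (1.37), Nsg1 (1.26) and Stmn2 (1.23), genes of the neuronal cytoskeleton, axon growth and vesicle traffic. Of 16 genes of the transmitter list 12 were called, led by Penk (1.33), Calb2 (1.28), Gal (1.22), Cartpt (1.11) and Slc18a3 (1.05). Slc18a3 is the vesicular transporter of acetylcholine. Choline uptake through Slc5a7 (0.85) was called as well, so that 2 partners of Chat were measurable where Chat itself was not. Ddc, which epithelial endocrine cells also express, had a slope of -0.47 and was not called.

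Of 14 glial genes 7 were called, led by Ncam1 (1.00), Gpr37l1 (0.84), Gfra2 (0.83), Cdh19 (0.80) and Lgi4 (0.78), and with Gfap (0.70) among the rest. Those not called included Erbb3 (-0.65), a neuregulin receptor that epithelium also expresses, L1cam (-0.01) and Entpd2 (-0.10). In the GDNF and endothelin list 6 of 13 were called, among them Gfra4 (0.97), Gfra1 (0.94), the co-receptor with which Ret binds GDNF, Gfra2, Nrtn (0.69) and Gdnf (0.63) itself, while Edn3 (-0.12) and Erbb2 (-0.54) were not. Among the targets of neuropeptides and nitric oxide 8 of 12 were called, led by Chrm2 (1.15), Galr2 (1.14), Adcyap1r1 (1.04), Gucy1a1 (0.93) and Gucy1b1 (0.91). Of the 2 Vip receptors, neither Vipr2 (0.57, adjusted p = 0.033, limma) nor Vipr1 (-0.39, adjusted p = 0.0179, limma) was called.

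Cells of the muscle coat moved with the members. A called positive slope was found for 17 of 18 smooth muscle genes, which make up the score, 5 of 5 genes of the interstitial cells of Cajal (the pacemaker cells, from Kit at 0.75 to Ano1 at 1.04), 4 of 8 fibroblast genes, 3 of 6 endothelial genes and 1 of 7 macrophage genes, and both tested skeletal muscle genes. None was called positive among 3 mesothelial, 6 tuft cell, 9 lymphocyte, 6 adipocyte, 9 enteroendocrine and 11 epithelial genes. All 11 epithelial slopes were negative, 1 of them called, as were 2 negative enteroendocrine slopes. With the epithelial score in place of the muscle score, 5 of 7 members had a called negative slope, including Elavl4 (-1.47). The share of all genes called on that score is not reported here, so whether the members stood out on it is left unsaid. Which cell layer the transcripts of the members came from was not tested.

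**Figure D4:**
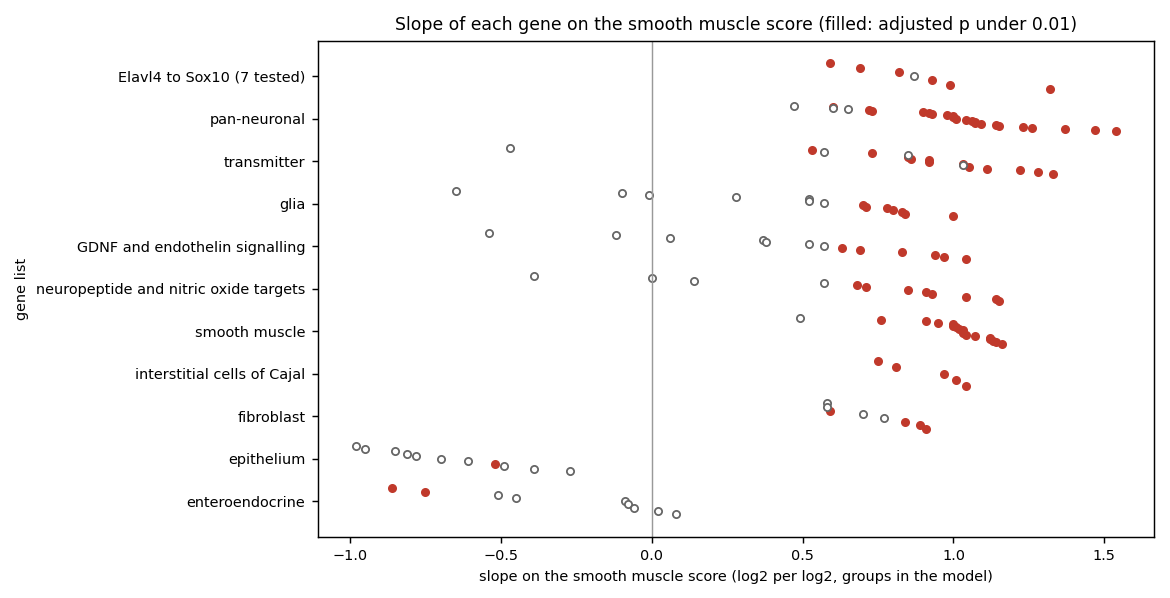
Slope of each tested gene on the smooth muscle score (log2 per log2, groups in the model), by gene list, filled where the adjusted p was under 0.01. The 7 tested members (0.59 to 1.32) and the pan-neuronal genes (0.47 to 1.54) lie to the right of 0, and the epithelial genes (-0.98 to -0.27) to the left.

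The genes most like the members over the 13 libraries were found by Pearson's r with the mean standardised level of the 7 tested members, and they are a description with no test. The 10 nearest were Eef1a2 (r = 0.987), Nrp2 (0.986), Ncam1 (0.985), Ndrg4 (0.984), Slc6a17 (0.984), Foxp2 (0.982), Ripor1 (0.982), Cnr1 (0.981), Tspyl4 (0.980) and Ngfr (0.980). Eef1a2 is the elongation factor of neurons and muscle, Cnr1 the cannabinoid receptor of neurons and Ngfr the low-affinity neurotrophin receptor. Their r with the muscle score was 0.92 to 0.97, as high as that of the members. Nearest to Elavl4 were Pcdhgb7 (0.927), Fndc1 (0.915), Zfp462 (0.910), Thsd4 (0.901) and Tmem201 (0.90), and nearest to Sox10 were Spaca6 (0.963), Lama5 (0.962), Eva1b (0.953), Msantd3 (0.953) and Aatk (0.950). None of those 10 is in the neuronal or glial lists.

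**Figure D5:**
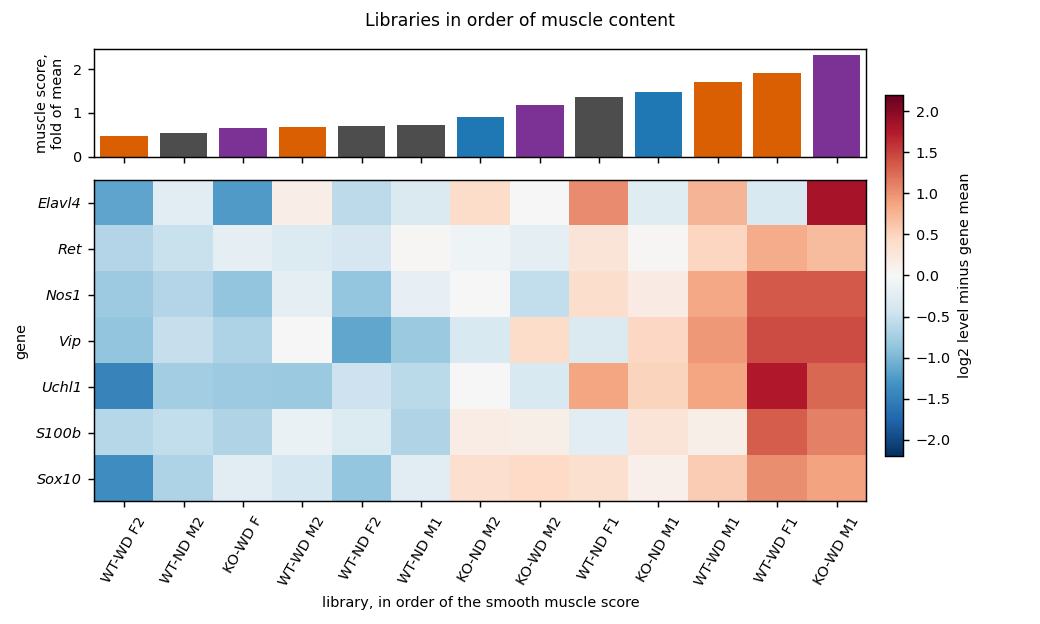
Libraries in order of the smooth muscle score, drawn above as fold of the mean (linear axis from 0, coloured by group), with the log2 level of each tested gene minus its mean below. The 4 groups are interleaved along the order from WT-WD F2 (0.483-fold) to KO-WD M1 (2.34-fold), and the colours turn from blue to red along it.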

How the data were processed

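Terminal ileum RNA of 16 samples, 4 a group by the labels, was selected for mRNA, depleted of rRNA and sequenced on an Ion Proton. The authors checked reads with FASTQC, aligned them with STAR in Partek Flow to mm10 and quantified Ensembl transcripts of release 91. The deposited table holds RPKM per transcript although it is described as raw counts, so the count test named in the study was not used here and the depth was inferred from the steps between low values (86.6% to 87.9% of values from 0.5 to 200 reads came within 0.02 of a whole number).

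Here RPKM were summed to genes, and genes with at least 1 RPKM in at least 2 of 13 libraries were kept. Scale factors came from the log ratios to a reference library, averaged after 30% of ratios and 5% of levels were trimmed at each end. The model was fitted to log2(scaled RPKM + 0.5) in R 4.3.3 with the package limma 3.58.1 (mean-variance trend, the 4 groups in 1 model, Benjamini-Hochberg adjustment over all 19042 genes). Differences are on this scale, which understates changes of low genes. Calls between groups needed a fold of at least 2 and an adjusted p under 0.01, and calls of slopes on the smooth muscle score an adjusted p under 0.01. Single members were also tested by two-sided exact permutation tests, unadjusted over the 8 genes and 4 comparisons of levels and the same number relative to muscle. Correlations used 100000 permutations, or all orders within a diet. The labels name no animal for a sample, so p-values measure the spread between these libraries, which may be technical. Scripts were tested on simulated data. Members and lists were chosen with earlier results of these data known. In every comparison the 8 members were named, as were the genes called in the related lists (up to 5 by size), or else the highest and lowest of each list, and the genes nearest to the members. Slc5a7, Gfap and other genes named beside these, outside that rule, were chosen after their values were seen. Some genes that this rule names are not reported here.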

Additional observations from a re-analysis of the deposited data

Results flagged for a closer look

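Among 30 sets of 4 WT libraries examined, comprising the level of each of the 7 tested genes, its level relative to muscle and the muscle score in each of the WT-ND and WT-WD groups, 1 held a library far from the others. S100b relative to the smooth muscle score was lowest in WT-WD M1, at -5.80 on the log2 scale, while WT-WD M2, F1 and F2 stood at -4.77, -4.78 and -4.76. The gap took 0.98 of the whole range of the group, above the critical value of 0.829 for 4 samples. Chance flags about 1 in 20 such groups. The level of S100b in WT-WD M1, 2.62 RPKM, was within the range of its group.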

How the results depend on the processing

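The count of members called between groups was 0 under every scaling, pseudocount, filter, covariate, threshold, subset of samples and left-out library tried. The count of slopes called on the muscle score was 6 of 7 as reported. It stayed at 6 with Myh11 alone as the score, with RLE scaling, with a pseudocount of 0.1 or 1 and with sex in the model. With the libraries left out singly it ranged from 3 (without WT-WD F2) to 6. Without both WT-WD females, an alternative chosen after the data were seen, it was 1, and at an adjusted p under 0.05, also chosen afterwards, it was 7. The relative-to-muscle tests were likewise added after the data were seen. No slope changed sign. The shares of all genes with a called slope under these alternatives are not reported here. Counts over all genes for the diet in WT mice moved from 1 as reported to 539 without scaling, 33 with 16 columns and 22 at an adjusted p under 0.05 with no minimum fold. RLE scaling and a pseudocount of 1 turned no member's direction. With no filter or with the 2 groups alone the estimates of members could not move, by construction. Removal of transcripts with over 6 digits took 0 of the 17 member transcripts. It could act on members through the scale factors alone, and it turned no direction either.

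The labels do not say that a number marks a shared litter or batch. Deviations from group means of same-numbered libraries correlated by -0.15 to 0.57, not over 0.1 in every pair, so the numbers were not taken as pairs. The median was 0.115, against -0.045 for other numbers. Of 13 libraries 8 correlated best with their own number, a hint of pairing from the data and not from the design. The averaged KO-WD females had no number of their own. All their pairs counted as other numbers, among them that with WT-WD F2 at 0.63. With the replicate block in the model 2 of 7 slopes were called (Uchl1 and Vip), the share of all genes not being reported here. The block placed the averaged KO-WD females with the F1 libraries. Their correlation was -0.14 with WT-WD F1 and -0.20 with WT-ND F1. Under the replicate block the sign was opposite, for the genotype on ND in Elavl4 (-0.34) and for the genotype on WD in Ret (-0.14), Vip (-0.27) and S100b (-0.09).

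None of the differences between groups passed the test. Their directions moved with the processing, the subset of samples or the library left out in 96 of 868 cases. The 868 include cases whose estimate could not or could hardly move, such as no filter or a left-out library outside the comparison. The cause was not tested. Without scaling the sign was opposite, for the diet in WT mice in Ret (-0.18), Uchl1 (-0.12) and Sox10 (-0.01), for the diet in KO mice in Elavl4 (-0.12), Ret (-0.23), Vip (-0.07) and Sox10 (-0.21), for the genotype on ND in Elavl4 (-0.01) and Ret (-0.04) and for the genotype on WD in Ret (-0.10), Vip (-0.11) and S100b (-0.08). With the smooth muscle score as a covariate the sign was opposite, for the diet in WT mice in Ret (0.00), Uchl1 (-0.17) and Sox10 (0.00), for the genotype on ND in Elavl4 (-0.39), Ret (-0.22), Nos1 (-0.16) and Uchl1 (-0.25), for the genotype on WD in Ret (-0.14), Vip (-0.24) and S100b (-0.16) and for the interaction in Ret (0.08) and Sox10 (0.06). In males alone the sign was opposite, for the diet in WT mice in Elavl4 (0.73), for the diet in KO mice in Nos1 (0.32), Uchl1 (0.21) and S100b (0.40) and for the genotype on WD in Nos1 (0.07) and Uchl1 (0.44). With all 16 columns taken as labelled the sign was opposite, for the diet in KO mice in Elavl4 (-0.21) and Vip (-0.01), for the genotype on WD in Elavl4 (-0.02), Ret (-0.04), Vip (-0.24) and S100b (-0.17) and for the interaction in Elavl4 (-0.08). With a pseudocount of 0.1 the sign was opposite, for the diet in KO mice in Elavl4 (-0.12). With sex as a covariate the sign was opposite, for the genotype on ND in Elavl4 (-0.30) and for the genotype on WD in Vip (-0.08). With 1 library left out in turn the sign changed at least once, for the diet in WT mice in Elavl4 (-0.42 to 0.23), Ret (-0.03 to 0.46), Uchl1 (-0.24 to 0.84) and Sox10 (-0.05 to 0.75), for the diet in KO mice in Elavl4 (-0.69 to 0.84), Ret (-0.17 to 0.28), Nos1 (-0.79 to 0.32), Vip (-0.20 to 0.86), Uchl1 (-0.81 to 0.21), S100b (-0.48 to 0.40) and Sox10 (-0.13 to 0.42), for the genotype on ND in Elavl4 (-0.23 to 0.44), for the genotype on WD in Elavl4 (-0.46 to 1.06), Ret (-0.26 to 0.27), Nos1 (-1 to 0.09), Vip (-0.50 to 0.54), Uchl1 (-0.63 to 0.53), S100b (-0.42 to 0.45) and Sox10 (-0.03 to 0.78) and for the interaction in Elavl4 (-0.56 to 0.97), Ret (-0.39 to 0.15), Uchl1 (-1.13 to 0.03) and Sox10 (-0.62 to 0.17). Depth limited Chat and Elavl4 most.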
